A study of Mus musculus with 20 samples.

Results

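The comparison set cultured mouse hippocampal neurons given NVP-AAM077 (called NVP) against such cultures given a compound listed under a Ro25 code (called Ro25). Its members were the arrays titled NVP and Ro25, 5 of each, which are 10 of the 20 arrays in the series. The dissociated neurons came from mouse hippocampus, were on day 21 in culture and were treated for 24 h. NVP was given at 100 nM and Ro25 at 1 µM. The other groups were AP5 at 100 µM and a vehicle control, with 5 arrays each. No group carried a transgene or a deletion according to the labels, and the labels give neither the strain of mouse nor its age. They also leave unsaid whether replicate arrays stand for separate cultures, so the p-values below measure only the spread between arrays, which may be technical.

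NMDA receptors are glutamate-gated channels that let calcium into neurons when glutamate binds while the membrane is depolarised. Each receptor joins the obligatory Grin1 product with products of the Grin2 or Grin3 genes, and the Grin2 product sets much of the pharmacology. AP5 competes with glutamate at NMDA receptors of every Grin2 type, whereas NVP-AAM077 is a competitive antagonist known for preferring receptors that hold the Grin2a product. The code that the labels write for Ro25 differs in its last digits from that of a familiar subunit-preferring antagonist, so the compound and its subunit are not settled here. Calcium entry through NMDA receptors is known to switch on immediate early genes such as Arc, Npas4, Nr4a1 and Fos. It is also known to switch on Bdnf and Ptgs2, the gene for cyclooxygenase 2 that the series title names. The doses of the compounds differed, and how much of the receptor current each dose blocked was not measured, so the values describe these treatments and not a difference in potency.

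The promoters of Npas4, Nr4a1 and Ptgs2 are shown because these 3 genes are compared between the compounds below and all were lower with AP5 (adjusted p from 1.5e-10 to 1.1e-07 in limma). The run of bases TGACG, read on either strand, is the core of the cAMP response element that CREB family factors bind, and each match is in capitals. The sequences hold the 250 bases before the annotated start in GRCm38.p6, from RefSeq, on the strand of the gene. Npas4 lies at chr19:4989972-4990221 on the minus strand, Nr4a1 at chr15:101266596-101266845 on the plus strand and Ptgs2 at chr1:150099781-150100030 on the plus strand.
Npas4: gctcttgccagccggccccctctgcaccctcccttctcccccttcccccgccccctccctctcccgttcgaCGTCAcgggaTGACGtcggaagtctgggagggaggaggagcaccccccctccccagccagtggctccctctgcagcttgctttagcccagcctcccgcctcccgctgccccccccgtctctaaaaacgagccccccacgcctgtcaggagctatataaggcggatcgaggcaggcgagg
Nr4a1: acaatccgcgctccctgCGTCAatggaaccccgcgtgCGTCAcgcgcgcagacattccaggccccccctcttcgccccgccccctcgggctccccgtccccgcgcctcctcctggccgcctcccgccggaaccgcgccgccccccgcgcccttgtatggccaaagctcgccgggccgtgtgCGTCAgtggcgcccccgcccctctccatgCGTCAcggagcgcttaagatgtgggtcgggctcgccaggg
Ptgs2: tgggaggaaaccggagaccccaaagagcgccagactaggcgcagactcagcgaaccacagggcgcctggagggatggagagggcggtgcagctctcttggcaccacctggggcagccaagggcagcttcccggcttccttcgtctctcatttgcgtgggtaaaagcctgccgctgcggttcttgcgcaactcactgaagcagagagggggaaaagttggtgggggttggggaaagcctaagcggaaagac
The Npas4 window held 2 matches, the Nr4a1 window held 4 and the Ptgs2 window held 0. No match overlapped another in these windows. Of all 32851 promoter windows of this length, 17.8% held at least 1 match, 3.90% held at least 2 and 0.137% held at least 4. A match is only a run of letters, and its absence from a window says nothing about the factor.

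Each array carried RNA of 1 sample in Cy5 (red) beside a universal mouse reference RNA in Cy3 (green), and the level of a gene is log2(Cy5/Cy3) after background correction and loess normalisation. After this normalisation a value of 0 stands for the typical ratio to the reference RNA among spots of similar brightness on the array. Levels can be compared between arrays for 1 gene but not between genes. Over the NVP and Ro25 arrays, 59.2% to 69.9% of probes were well above background in red, and 0 spots were saturated. Neuronal genes, checked because the tissue is labelled as neurons, were high on every array. Map2, a dendritic microtubule protein, averaged 6.52 ± 0.14 with NVP and 6.59 ± 0.17 with Ro25, and Snap25, a synaptic vesicle fusion protein, averaged 7.81 ± 0.18 with NVP and 7.88 ± 0.16 with Ro25 (SD, n = 5 each). Glial RNA was also present, since Gfap, the intermediate filament of astrocytes, averaged 5.03 ± 1.08 with NVP and 5.23 ± 1.11 with Ro25. In such bulk RNA, fewer cells of a type and less RNA per cell cannot be told apart. The arrays lay on slides that the groups shared only in part. NVP 1, NVP 5 and Ro25 3 were on 1 slide, and it was the only slide holding both compounds.

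Across all genes NVP and Ro25 cultures were close to each other. Of 19359 genes tested, 0 passed an adjusted p under 0.05 (percent called 0; limma with Benjamini-Hochberg adjustment, two-sided), and the lowest adjusted p was 0.743. At an unadjusted p under 0.05 there were 1143 genes (5.90%), of which 541 were higher with NVP (2.79%) and 602 lower (3.11%). The median difference, NVP minus Ro25, was -0.01 on the log2 scale, and the median size of the difference was 0.07, against a median standard error of 0.10. The median SD between arrays was 0.13 with NVP and 0.16 with Ro25. These SDs are of single arrays, so a difference between group means is to be set against its standard error instead.

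A p that misses the threshold does not show that the compounds act alike, so the intervals were counted. The 95% interval of the difference lay within 1.5-fold either way for 18193 genes (94.0%) and within 2-fold for 19244 genes (99.4%). These shares depend on the processing. With Agilent's processed signals the share within 1.5-fold was 70.5%, with median centring in place of loess 79.0% and with dim probes let in 95.9%. The group means differed by 1.5-fold or more for 27 genes and by 2-fold or more for 1. Levels of the 5 NVP arrays all lay above those of the 5 Ro25 arrays for 45 genes (0.232%) and all below them for 69 (0.356%). With the slide as a fixed block 0 genes passed as well and the lowest adjusted p was 0.952. Within the slide that held both compounds, where the lone Ro25 array is assumed to vary like the others, 0 genes passed and the lowest adjusted p was 0.714. The share of genes with an interval within 1.5-fold was smaller in these fits, at 75.6% with the slide block and 64.6% within the shared slide.

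**Figure D1:**
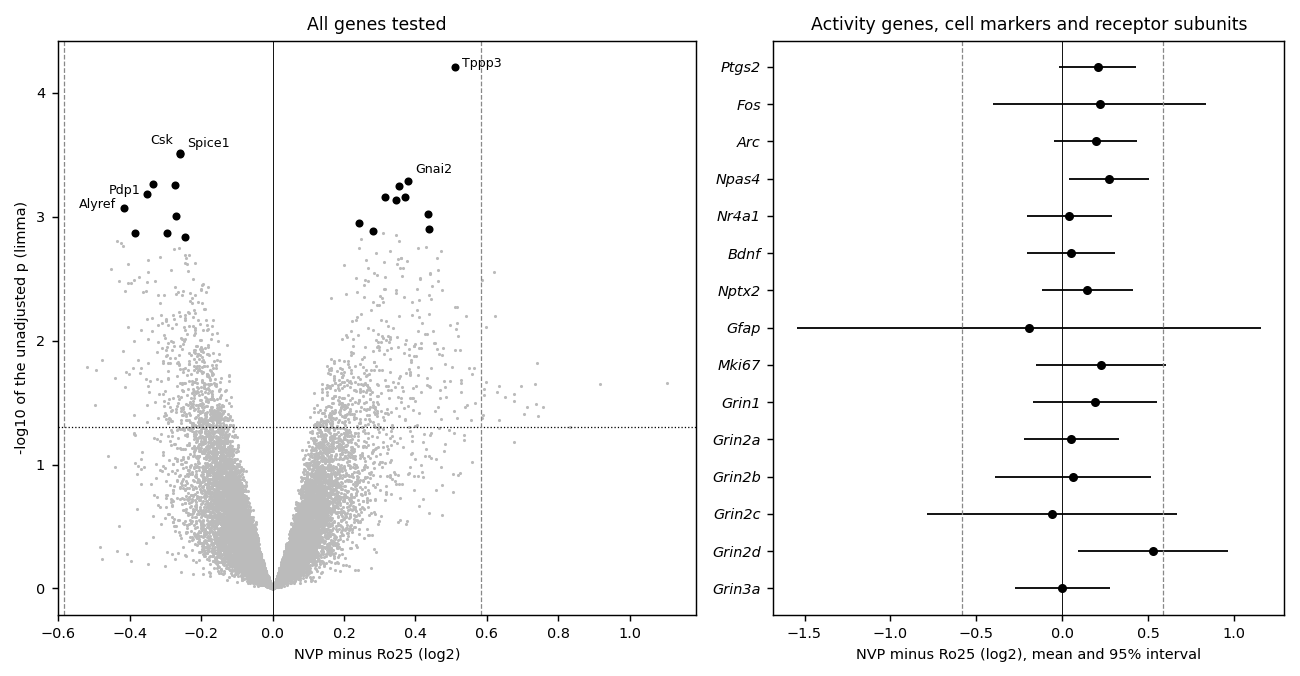
Left, the difference NVP minus Ro25 (log2) of every gene tested against -log10 of its unadjusted p in limma, with a dotted line at the level of 0.05, dashed lines at 1.5-fold and black points for the 20 genes of lowest p, 10 in each direction. Right, the difference with its 95% interval for 15 activity, marker and receptor genes. Tppp3 has the lowest p, and the widest interval on the right is that of Gfap, from -1.55 to 1.16.

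The gene of lowest p was Tppp3, which encodes a member of the tubulin polymerisation promoting protein family. Its level was 0.55, 0.41, 0.46, 0.79 and 0.61 on NVP arrays 1 to 5, against 0.05, 0.05, 0.04, 0.05 and 0.08 on Ro25 arrays 1 to 5. All NVP arrays lay above all Ro25 arrays, and the Ro25 values were packed within an SD of 0.01. The difference was 0.51 (SE 0.10, 95% interval 0.30 to 0.72), a ratio of 1.43 between the group means, and it did not pass (unadjusted p 6.2e-05 and adjusted p 0.743 in limma). Control arrays averaged 0.58 ± 0.18 (SD, n = 5), so NVP lay at -0.01 (SE 0.10, adjusted p 0.999 in limma) from control and Ro25 at -0.53 (SE 0.10, adjusted p 0.140 in limma). AP5 arrays averaged 0.20 ± 0.23, and that difference from control passed (-0.38, adjusted p 0.0293 in limma). Within the shared slide the Tppp3 difference was 0.54 and its place in the order of p was 407, and with the slide as a block the difference was 0.42 and the place 519. Without NVP 5 it was in place 17 and without Ro25 1 in place 11.

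Other genes of lowest p that were higher with NVP are described next, and they too missed the threshold (adjusted p 0.743 in limma). Gnai2, an inhibitory G protein alpha subunit, was at -0.58, -0.25, -0.22, -0.38 and -0.53 on the NVP arrays, against -0.62, -0.99, -0.78, -0.95 and -0.52 on the Ro25 arrays. Its group means differed by 0.38 (SE 0.09), and Ro25 5 was above NVP 1 and NVP 5. Osr1, a zinc finger transcription factor, differed by 0.31 (SE 0.08) and Ints9, a subunit of the Integrator complex that processes small nuclear RNAs, by 0.24 (SE 0.06). Lims1, a focal adhesion adaptor, differed by 0.43 (SE 0.11) on its brighter probe and by -0.07 (SE 0.09) on its other probe, so its probes disagree. The predicted or unnamed features 9330133O14Rik, NAP103155-1 and LOC631366 were also among the first 10 in this direction, as was Cnn2, which is described with the contractile genes.

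The 10 genes of lowest p that were lower with NVP differed by -0.42 to -0.25, and they too missed the threshold. Csk, the kinase that holds Src family kinases inactive, was at 0.05, 0.07, 0.06, 0.17 and 0.05 on the NVP arrays, against 0.22, 0.42, 0.47, 0.38 and 0.21 on the Ro25 arrays. The groups did not overlap, and the difference was -0.26 (SE 0.06, adjusted p 0.743 in limma), but the gene's other probe gave 0.02 (SE 0.07). Pdp1, the phosphatase that activates pyruvate dehydrogenase, was at 2.60, 2.65, 2.70, 2.58 and 2.75 on the NVP arrays, against 2.85, 3.15, 2.89, 3.24 and 2.92 on the Ro25 arrays. These groups did not overlap either, and the difference was -0.35 (SE 0.09). Alyref, an adaptor of messenger RNA export, differed by -0.42 (SE 0.11), with NVP 5 at -0.85 above Ro25 1 at -0.95 and Ro25 5 at -0.93. Spice1, a centriole protein, differed by -0.26 (SE 0.06) on its brighter probe and by 0.22 (SE 0.08), the opposite sign, on its other probe. Hnrnpa2b1, an RNA-binding protein, differed by -0.27 (SE 0.07). Stk25, a kinase of the Ste20 family, differed by -0.30 (SE 0.08), and Rraga, a small GTPase that couples amino acids to mTOR complex 1, by -0.25 (SE 0.07). The second probes of Hnrnpa2b1 and Ccdc43 gave -0.03 (SE 0.12) and -0.01 (SE 0.11), against -0.27 and -0.33 on the brighter ones. Tprn and the transcript CO796036 complete the 10.

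**Figure D2:**
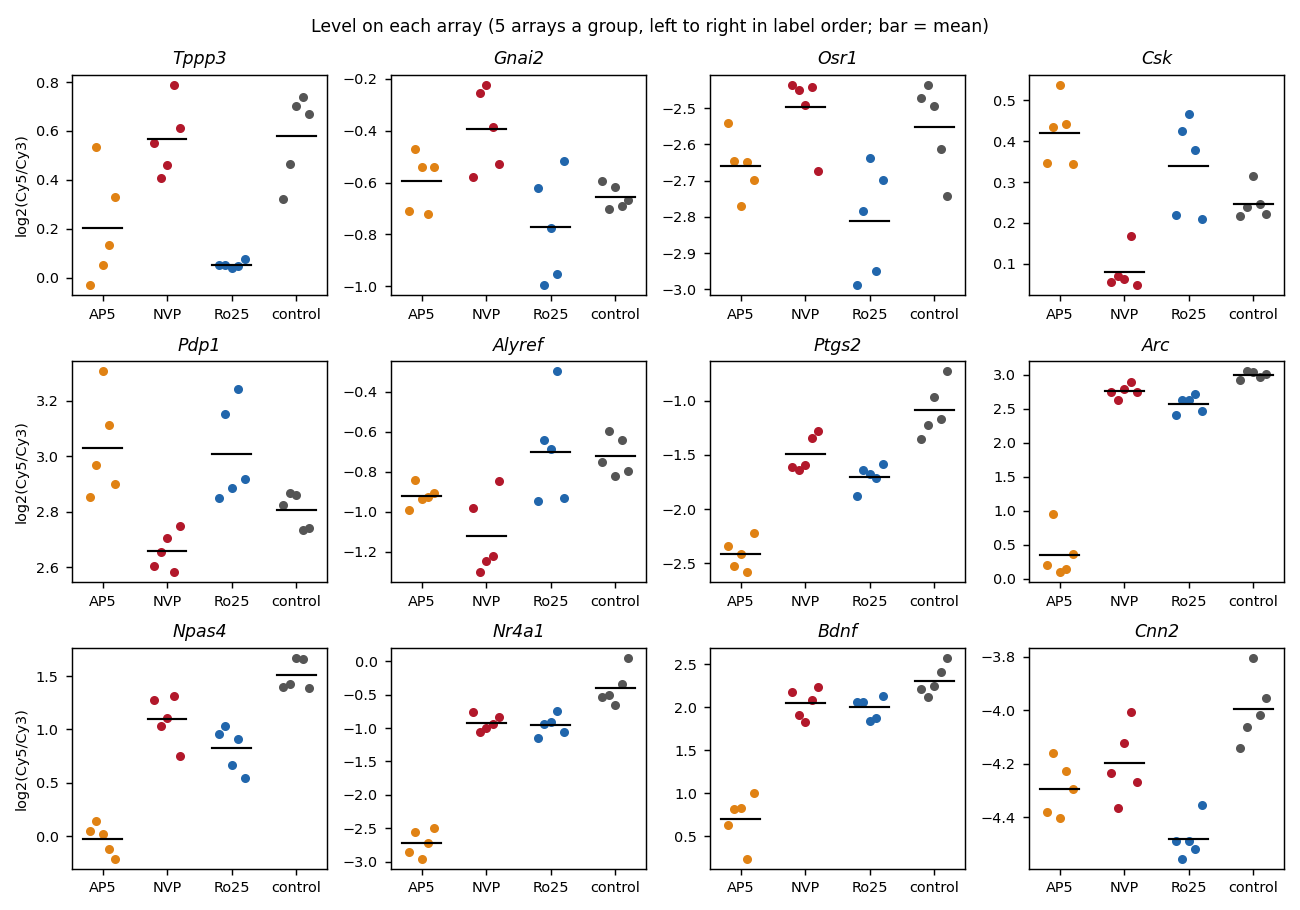
Level, log2(Cy5/Cy3), of 12 genes on each array, with groups AP5, NVP, Ro25 and control from left to right, 5 points a group and a bar at the mean. Each panel has its own axis. The NVP and Ro25 points do not overlap for Tppp3, Csk and Pdp1, while for Arc and Nr4a1 the AP5 points lie far below those of the other groups.

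The activity genes fixed for naming were all at or slightly above their Ro25 level in NVP cultures, and none passed the test across genes. Ptgs2 was at -1.61, -1.64, -1.59, -1.34 and -1.28 on the NVP arrays, against -1.88, -1.64, -1.68, -1.71 and -1.59 on the Ro25 arrays. NVP 4 and NVP 5 were above every Ro25 array, and the other NVP arrays fell inside the Ro25 range. The Ptgs2 difference was 0.21 (SE 0.11, 95% interval -0.02 to 0.43, adjusted p 0.863 in limma), and its second probe gave 0.22 (SE 0.10). Arc, a cytoskeletal protein of active synapses, was at 2.75, 2.64, 2.80, 2.90 and 2.76 on the NVP arrays, against 2.41, 2.64, 2.63, 2.72 and 2.47 on the Ro25 arrays. NVP 3, 4, 5 and 1 exceeded every Ro25 array, and the difference was 0.19 (SE 0.12). Npas4, a neuronal transcription factor induced by calcium entry, was at 1.28, 1.03, 1.11, 1.31 and 0.75 on the NVP arrays, against 0.96, 1.03, 0.67, 0.91 and 0.54 on the Ro25 arrays. NVP 2 was level with Ro25 2 and NVP 5 lay below 3 of the Ro25 arrays, so the groups overlapped, and the difference was 0.27 (SE 0.11, 95% interval 0.04 to 0.50).

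Nr4a1, an orphan nuclear receptor, and Bdnf, a neurotrophin, were nearly level between the compounds. Nr4a1 was at -0.75, -1.06, -1.002, -0.94 and -0.83 on the NVP arrays, against -1.15, -0.94, -0.90, -0.74 and -1.06 on the Ro25 arrays. The difference was 0.04 (SE 0.12, 95% interval -0.21 to 0.29), which leaves room for less than 1.5-fold in either direction. The Bdnf difference was 0.05 (SE 0.12, 95% interval -0.21 to 0.30). Exact two-sided permutation tests over all splits of the 10 arrays into 5 and 5 gave p 0.0159 for Arc (0.0794 adjusted over the 5 genes), 0.0476 for Ptgs2 (0.119), 0.0952 for Npas4 (0.159), 0.587 for Bdnf (0.643) and 0.643 for Nr4a1 (0.643). The smallest p these splits allow is 0.00794. None of the 5 passed after adjustment, and the intervals of Arc and Ptgs2 reach from about no difference to less than 1.5-fold higher with NVP. Fos varied most, with -1.75 on NVP 5 and -2.07 on Ro25 5 far above the other arrays of their groups, and its difference was 0.22 (SE 0.30). Nptx2, a neuronal pentraxin that clusters AMPA receptors, differed by 0.15 (SE 0.13).

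Set beside the same 5 control arrays, which the compounds share, each compound's own values for these genes were below control. Ptgs2 was at -0.40 (SE 0.11) with NVP and -0.61 (SE 0.11) with Ro25, Arc at -0.23 (SE 0.12) with NVP and -0.43 (SE 0.12) with Ro25, and Nr4a1 at -0.52 (SE 0.12) with NVP and -0.56 (SE 0.12) with Ro25. Against control 0 genes passed with NVP (percent called 0), where 1136 had an unadjusted p under 0.05 and the lowest adjusted p in limma was 0.484, and 3 genes passed with Ro25 (0.0155%), where 840 had an unadjusted p under 0.05. All 3 were lower with Ro25, among them Npas4 and Cnn2 at adjusted p 0.0474 in limma. A gene past the threshold with Ro25 and not with NVP is not thereby shown to differ between them, and the direct differences follow.

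Npas4 was -0.41 (SE 0.11) from control with NVP and -0.68 (SE 0.11) with Ro25, and the direct difference of 0.27 did not pass (adjusted p 0.811 in limma). Cnn2, an actin-binding calponin, was at -4.23, -4.36, -4.12, -4.005 and -4.27 on the NVP arrays, against -4.49, -4.56, -4.49, -4.52 and -4.36 on the Ro25 arrays. NVP 2 lay just below Ro25 5, and the difference was 0.28 (SE 0.08, adjusted p 0.743 in limma). Control arrays averaged 1.51 ± 0.14 for Npas4 and -3.996 ± 0.126 for Cnn2.

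Lists of related genes were described by their counts and medians, beside 8982 of all 19359 genes higher with NVP (46.4%) and the overall median of -0.01. The 42 lists hold 877 genes, of which 864 were on the array and 817 were tested, and 0 of them passed in the NVP and Ro25 comparison. Of 29 immediate early genes, 24 were higher with NVP and 5 lower, with a median of 0.07, and 2 had an unadjusted p under 0.05, Npas4 and Klf2, where 5.90% of all genes did. The median of the list was -0.13 from control with NVP and -0.21 with Ro25. Averaged over the list, the level was -0.75, -0.86, -0.85, -0.74 and -0.77 on the NVP arrays, against -0.95, -0.82, -0.85, -0.93 and -0.88 on the Ro25 arrays. The arrays overlapped, with Ro25 2 and Ro25 3 inside the NVP range. Klf2, a Krüppel-like transcription factor, differed by 0.68 (SE 0.29) on its brighter probe but by -0.07 (SE 0.10) on the other. Within the shared slide the brighter probe gave -0.20. Klf2 is also among the genes of 1.5-fold or more described below, with NVP 5 at -0.85 and Ro25 4 at -0.93 the lowest of their groups.

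Actin and contractile genes, many of them known targets of serum response factor, gave the highest list median. Of 23, 19 were higher with NVP and 4 lower, with a median of 0.09, and their median from control was -0.11 with NVP and -0.19 with Ro25. Averaged over the list, the level was -2.13, -2.14, -2.10, -2.06 and -2.22 on the NVP arrays, against -2.27, -2.24, -2.19, -2.24 and -2.23 on the Ro25 arrays. NVP 5 lay among the Ro25 arrays and the other NVP arrays lay above all of them. Cnn2 and Actg2, a smooth muscle actin, had an unadjusted p under 0.05, against 5.90% of all genes, with Actg2 differing by 0.32 (SE 0.11). Acta2, the smooth muscle actin of mural cells, was between -3.14 and -2.98 on the NVP arrays, against -3.22 to -3.15 on the Ro25 arrays, so the groups did not overlap, and its difference was 0.13 (SE 0.07). Its other probes gave 0.30 (SE 0.11) and -0.15 (SE 0.08), so the probes of Acta2 disagree in sign. Markers of fibroblasts and meningeal cells, which are known to express contractile genes, had 14 of 19 higher with NVP and a median of 0.06, with Col1a2 at 0.20 (SE 0.07) and Fbln1, a matrix fibulin, at -0.40 (SE 0.16) on its brighter probe and 0.16 (SE 0.11) on its other. Averaged over the markers, the level ranged from -2.56 to -2.43 with NVP and from -2.59 to -2.48 with Ro25, and their part in the contractile values was not tested.

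**Figure D3:**
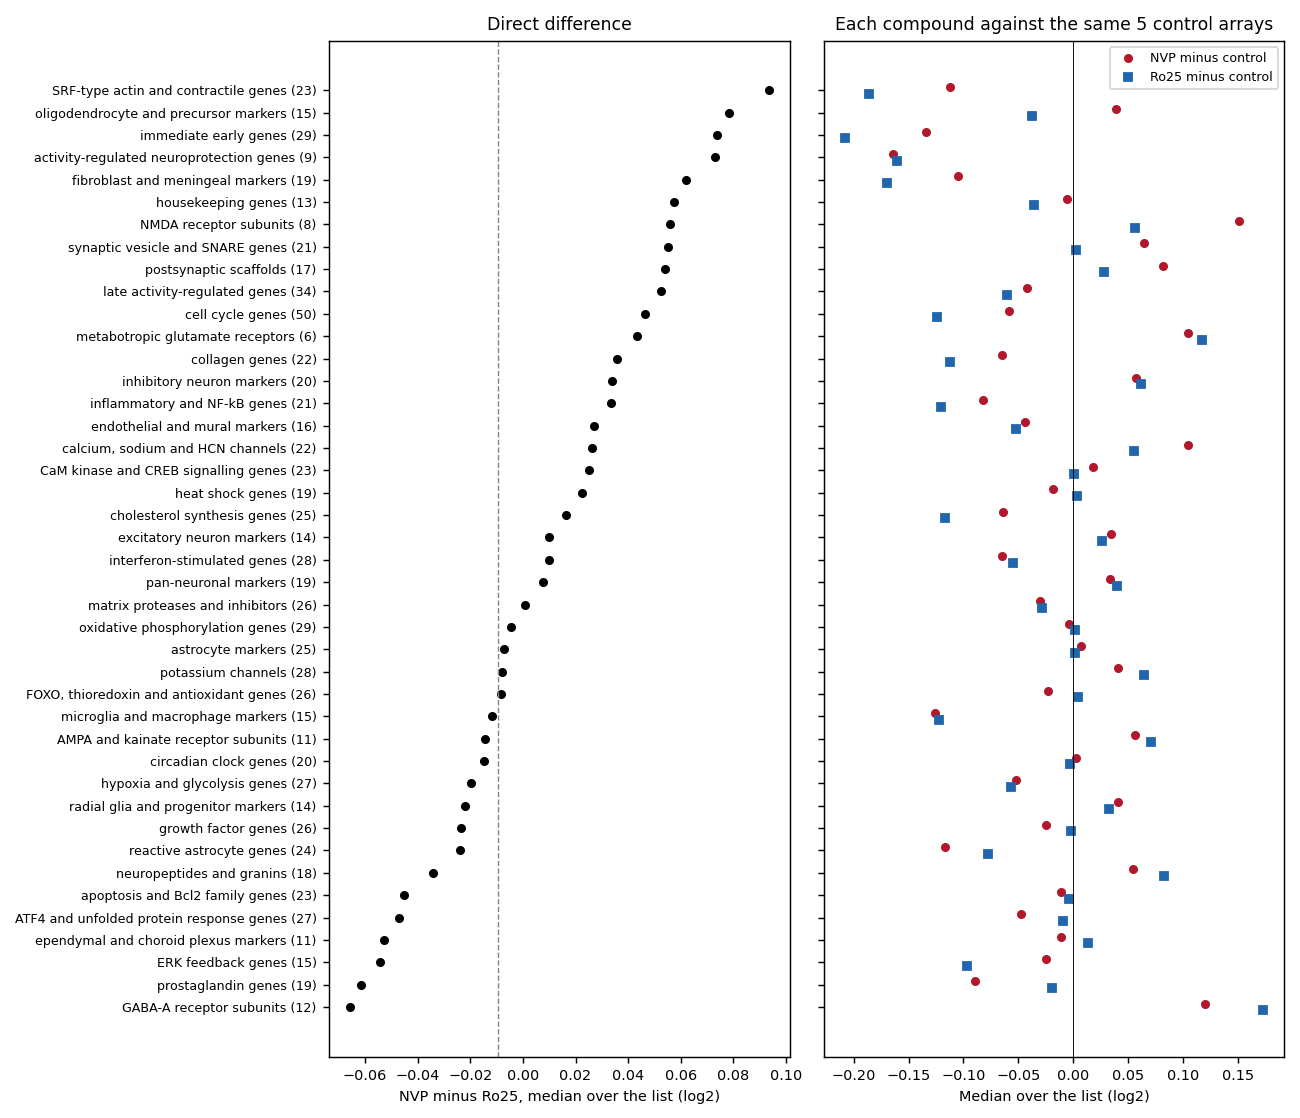
Left, the median NVP minus Ro25 difference (log2) over each of 42 gene lists, with the number of genes tested in parentheses and a dashed line at the median of all genes. Right, the medians of NVP minus control (circles) and Ro25 minus control (squares), which share their 5 control arrays. The medians on the left run from -0.07 for GABA-A receptor subunits to 0.09 for the actin and contractile genes.

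NMDA receptor subunit genes, a list that also counts Grina, had 7 of 8 higher with NVP and a median of 0.06. Of the 8, 2 had an unadjusted p under 0.05 in limma, against 5.90% of all genes. With the slide as a block the median of the list was -0.18, the opposite sign. Grin1, the obligatory subunit, averaged 1.16 ± 0.33 with NVP and 0.97 ± 0.38 with Ro25, a difference of 0.19 (SE 0.17). Grin2a averaged 0.96 ± 0.14 with NVP and 0.91 ± 0.28 with Ro25, a difference of 0.05 (SE 0.13, 95% interval -0.23 to 0.33). Grin2b averaged 3.61 ± 0.42 with NVP and 3.55 ± 0.35 with Ro25, a difference of 0.06 (SE 0.22, 95% interval -0.39 to 0.52). Grin2c differed by -0.06 (SE 0.35) and Grin3a by 0.00 (SE 0.13). Grin2d, the subunit of slow receptors in interneurons, was at 0.50, 0.41, 0.92, 1.08 and -0.24 on the NVP arrays, against 0.14, 0.15, 0.31, -0.47 and -0.10 on the Ro25 arrays. NVP 5 lay below 4 of the 5 Ro25 arrays, and the difference of 0.53 (SE 0.21) did not pass (adjusted p 0.811 in limma). Within the shared slide it was -0.18. Grina, a membrane protein once described as a glutamate-binding subunit, differed by 0.31 (SE 0.15).

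Of 19 prostaglandin genes tested, 7 were higher with NVP and 12 lower, with a median of -0.06, so Ptgs2 at 0.21 went against the larger number. Ptges3, a cochaperone also known as a cytosolic prostaglandin E synthase, was at -0.20 (SE 0.07) and Ptger3, a prostaglandin E2 receptor, at -0.26 (SE 0.12), and these were the only members with an unadjusted p under 0.05, against 5.90% of all genes. Cell cycle genes mark dividing cells, and the series title concerns the proliferation of astrocytes. They had 34 of 50 higher with NVP and a median of 0.05. At an unadjusted p under 0.05 in limma, 3 were higher and 1 lower, against 2.79% and 3.11% of all genes. The largest rise was 0.24 and the largest fall -0.30. The number higher was 8 within the shared slide and 45 without Ro25 4. Tpx2, a spindle assembly factor, differed by 0.21 (SE 0.08) and Ube2c, which feeds the anaphase-promoting complex, by 0.18 (SE 0.08). Mki67, a nuclear protein of dividing cells, was at -3.59, -3.45, -3.48, -3.26 and -3.91 on the NVP arrays, against -3.87, -3.34, -3.62, -3.65 and -4.33 on the Ro25 arrays. The lowest Mki67 value of each group was on array 5, and the difference was 0.22 (SE 0.18). Within the shared slide the cell cycle median was -0.11, the opposite sign.

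Astrocyte markers did not separate the compounds but varied widely between arrays. Gfap was at 4.82, 5.86, 4.63, 3.56 and 6.30 on the NVP arrays, against 4.92, 3.50, 5.73, 5.55 and 6.45 on the Ro25 arrays. NVP 4 and Ro25 2 were the lowest of their groups and array 5 the highest of each. The Gfap difference was -0.19 (SE 0.65), and its 95% interval of -1.55 to 1.16 does not bound the difference within 2-fold. Averaged over 25 astrocyte markers, the level was 3.23, 3.41, 3.26, 2.97 and 3.65 on the NVP arrays, against 3.23, 2.93, 3.40, 3.37 and 3.65 on the Ro25 arrays. Of these markers 11 were higher with NVP and 14 lower. Microglia and macrophage markers, of which 15 of 23 were tested, had 7 higher and 8 lower, and their level ranged from -2.86 to -2.71 with NVP and from -2.93 to -2.65 with Ro25.

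Genes of stress, immunity and neuronal signalling gave scattered values. Atf5, a stress-responsive transcription factor, was at -0.93, -0.66, -0.63, -0.70 and -0.75 on the NVP arrays, against -0.53, -0.51, -0.27, -0.18 and -0.60 on the Ro25 arrays. The groups did not overlap, and the difference was -0.32 (SE 0.09, adjusted p 0.743 in limma). In its list of ATF4 and unfolded protein response genes 9 of 27 were higher with NVP and 18 lower, with a median of -0.05. Among 28 interferon-stimulated genes 16 were higher, with Ifi204, a DNA sensor family member, at 0.27 (SE 0.08) and Ifitm3, an antiviral membrane protein, at 0.29 (SE 0.09). The other probes of Ifi204 gave 0.16 (SE 0.13) and -0.10 (SE 0.09). Of 21 inflammatory and NF-kB genes tested 16 were higher, among them the chemokine Ccl5 at 0.33 (SE 0.11) and Socs3, an inhibitor of cytokine signalling, at 0.24 (SE 0.09). The other Ccl5 probe gave -0.01 (SE 0.11). Cntf, a neurotrophic cytokine of astrocytes, did not overlap between the groups and differed by 0.32 (SE 0.10) on its brighter probe, but by -0.12 (SE 0.12) on its other probe and by 0.10 on the mean of its probes.

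In the neuronal signalling lists, Plk2, an activity-induced kinase that weakens synapses, was at -0.07, -0.35, -0.47, -0.21 and -0.16 on the NVP arrays, against -0.15, 0.24, 0.38, 0.20 and -0.17 on the Ro25 arrays. NVP 1 was above Ro25 1 and Ro25 5, NVP 5 was just above Ro25 5, and the difference was -0.35 (SE 0.11), opposite in sign to most of the 34 late activity-regulated genes, of which 24 were higher with NVP. Csnk1e, a kinase of clock proteins, differed by 0.45 (SE 0.14), and Camk1d, a calcium and calmodulin kinase, by 0.55 (SE 0.24). Creb1, which encodes CREB itself, differed by 0.26 (SE 0.11), and Syn1, a synaptic vesicle phosphoprotein, by 0.41 (SE 0.15). These values too depended on the probe, since other probes gave -0.02 (SE 0.09) for Csnk1e, -0.04 (SE 0.08) and -0.004 (SE 0.08) for Creb1 and 0.065 (SE 0.10) for Syn1. The other probes of Camk1d gave 0.35 (SE 0.18) and 0.10 (SE 0.17). Celf4, a neuronal RNA-binding protein, differed by 0.43 (SE 0.17), while the 19 pan-neuronal markers it belongs to had 10 higher and 9 lower with a median of 0.01. Among ERK feedback genes, Dusp7, an ERK phosphatase, differed by 0.38 (SE 0.15) and Spry2, a Sprouty inhibitor of the pathway, by -0.39 (SE 0.19) on its brighter probe and -0.02 (SE 0.07) on its other, and the list had 6 higher and 9 lower. Gapdh, a glycolytic enzyme, differed by 0.22 (SE 0.14) and Hprt, a purine salvage enzyme, by -0.13 (SE 0.06), so genes often used for reference differed by amounts like those of many genes above.

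The genes that changed with AP5 were called in a contrast of the AP5 and control arrays, although the spread behind those calls and the probe filter were set over all 20 arrays. With AP5, 694 genes were lower than control (3.58%) and 489 higher (2.53%) at an adjusted p under 0.05 in limma. Over the genes lower with AP5, the median difference NVP minus Ro25 was 0.02, and 402 of 694 (57.9%) were higher with NVP. Over the genes higher with AP5, the median was -0.05, and 134 of 489 (27.4%) were higher with NVP, against 46.4% of all genes. The 95% interval lay within 1.5-fold for 670 of the genes lower with AP5 (96.5%) and for 474 of the genes higher with AP5 (96.9%). The medians from control were -0.07 with NVP, -0.08 with Ro25 and -0.41 with AP5 over the first set, and 0.03 with NVP, 0.09 with Ro25 and 0.39 with AP5 over the second. With the slide as a block the shares higher with NVP became 42.5% and 31.3%, against 40.7% of all genes, and the first median became -0.02. Within the shared slide the shares were 49.0% and 39.9%, against 47.5% of all genes.

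**Figure D4:**
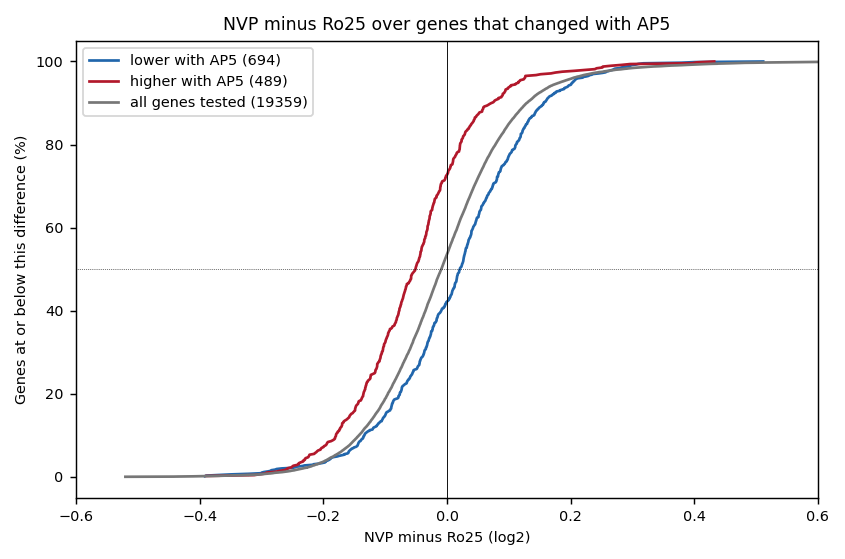
Cumulative share of genes (vertical axis, percent) at or below each NVP minus Ro25 difference (log2, horizontal axis), for 694 genes lower with AP5, 489 genes higher with AP5 and all 19359 genes tested. The curve of the genes higher with AP5 lies left of that of all genes (medians -0.05 and -0.01), and the curve of the genes lower with AP5 lies slightly right of it (median 0.02).

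Single genes that changed with AP5 are given next, and none passed between NVP and Ro25. Over all genes, the 5th and 95th percentiles of the difference were -0.18 and 0.18, and Ifi203, Relb and Arc lay beyond the latter. Arc was at -2.65 (SE 0.12) from control with AP5 and Nr4a1 at -2.31 (SE 0.12), while their differences between NVP and Ro25 were the 0.19 and 0.04 given above. Ifi203 was at -2.35 (SE 0.13) from control with AP5, and its NVP minus Ro25 difference was 0.26 (SE 0.13). The other Ifi203 probe gave 0.06 (SE 0.16), and within the shared slide the Ifi203 difference was -0.10. Ifi205 differed by 0.12 (SE 0.09), Tnfaip3, an inhibitor of NF-kB signalling, by 0.01 (SE 0.07) and Dusp6, an ERK phosphatase, by -0.10 (SE 0.08). Relb, an NF-kB subunit, was at -0.28, -0.34, -0.45, -0.27 and -0.37 on the NVP arrays, against -0.55, -0.46, -0.50, -0.66 and -0.54 on the Ro25 arrays. These groups did not overlap, and the difference was 0.20 (SE 0.09, adjusted p 0.842 in limma). With the slide as a block the Relb difference was -0.02.

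The 27 genes whose means differed by 1.5-fold or more shared a pattern over single arrays. In this fit all 27 were higher with NVP, 25 had an unadjusted p under 0.05, and for 0 of them did the groups separate. NVP 3 or NVP 4 was the highest NVP array for 27 of them, NVP 5 the lowest NVP array for 26 and Ro25 4 the lowest Ro25 array for 25. Their median SD was 0.73 between NVP arrays and 0.37 between Ro25 arrays. Pigt, a subunit of the enzyme that attaches GPI anchors, has the largest difference, and it and Lars2 were named after their values were seen. Pigt was at 0.93, 1.23, 1.63, 1.72 and -0.62 on the NVP arrays, against 0.69, -0.10, 0.21, -1.02 and -0.41 on the Ro25 arrays. Its difference was 1.11 (SE 0.44, adjusted p 0.811 in limma), and NVP 5 was below 4 of the 5 Ro25 arrays. Lars2, the mitochondrial leucyl tRNA synthetase, differed by 0.92 (SE 0.37) with the same arrays at the ends. Without NVP 4 the number of genes at 1.5-fold or more was 4, without Ro25 4 it was 6, without NVP 3 it was 11 and without NVP 5 it was 88. Without Ro25 1 it was 42 and without Ro25 2 it was 71. The direction also depended on the processing, since with the slide as a block 33 of 176 such genes were higher with NVP, and with Agilent's processed signals 217 of 365 were.

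**Figure D5:**
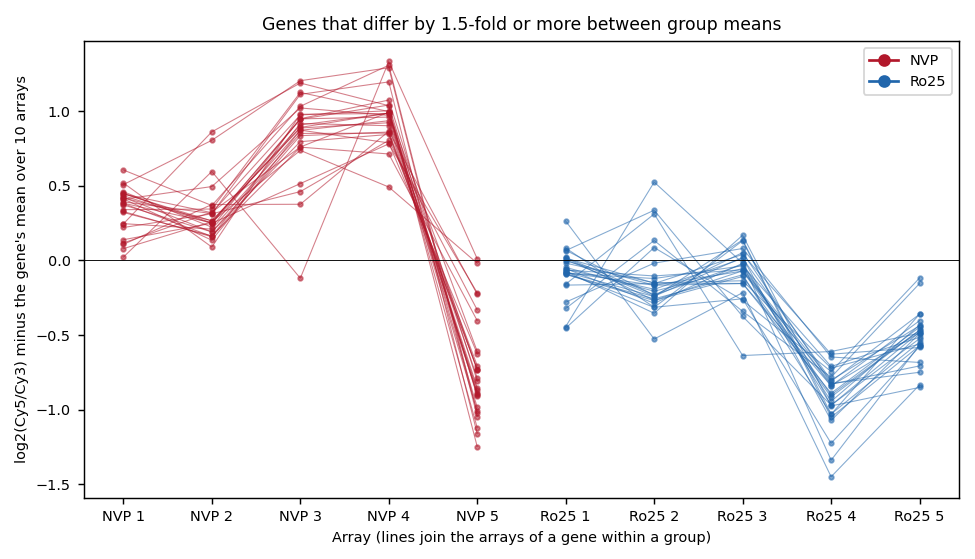
Level of the 27 genes whose group means differ by 1.5-fold or more, as log2(Cy5/Cy3) minus the gene's mean over the 10 arrays, for NVP arrays 1 to 5 (left) and Ro25 arrays 1 to 5 (right), with lines joining the points of a gene within a group. Most genes are highest on NVP 3 and NVP 4 and lowest on NVP 5 and Ro25 4.

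Over 19323 genes, the deviations of single arrays from their group mean were alike for some pairs across the compounds and opposed for others. NVP 4 and Ro25 2 had a correlation of 0.73, NVP 5 and Ro25 5 of 0.61, and NVP 1 and Ro25 1 of 0.51. NVP 3 and Ro25 4 had 0.47, although they lay at opposite ends for most of the 27 genes. In the other direction, NVP 4 and Ro25 5 had -0.48 and NVP 5 and Ro25 2 had -0.44. These correlations are across genes, which are not independent replicates. NVP 4 and Ro25 2 were also the arrays of lowest Gfap, and the array 5 of each group the highest.

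For 52 tested genes the probe was well above background on at least 3 arrays of 1 compound and on 0 of the other. Fbxw13, an F-box protein gene, was above background on 5 of 5 NVP arrays and 0 of 5 Ro25 arrays, with a difference of 0.33 in the log ratio. Snai3, a Snail family zinc finger gene, was above background on 0 of 5 NVP arrays and 4 of 5 Ro25 arrays, and Thegl on 0 of 5 NVP arrays and 3 of 5 Ro25 arrays. No gene of this kind passed the test, and near background a call can turn on a small change in brightness.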

How the data were processed

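The authors deposited 1 scanner file per 2-colour Agilent array, which names Feature Extraction version 10.7.3.1 in its header, while the submitters' processing notes name 11.0. Deposited spot intensity (mean signal and local background median) was corrected with normexp (offset 50) and normalised by loess within each array, with control spots at weight 0 and outlier spots left out. Values are log2(Cy5/Cy3), sample over reference per the labels. The deposited log10 ratios and the series' log2 value table served as alternatives or checks. Against the scanner ratios, the value table's columns had r from 0.914 to 0.931, slopes from 0.616 to 0.650 and medians from 0.030 to 0.063, so it has the same direction, while the scaling and centring behind it are unknown.

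Spots of a probe were averaged, and a probe was kept where red was well above background on at least 5 of 20 arrays. A gene was read from its brightest kept probe. There were 12790 genes with 1 kept probe and 6569 with several. Names came from accessions or symbols in RefSeq tables where they matched (23082 probes by accession, 6582 by symbol and 3073 by synonym), otherwise the file's own name (8437). A mean per group was fitted to all 20 arrays with limma 3.58.1 in R 4.3.3 (16 residual degrees of freedom), with Benjamini-Hochberg adjustment. The fit was tested on simulated data.

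Arrays were grouped by title. The members, the comparison, the lists and the promoters were chosen with earlier results of these data known. Genes were named by rule: the 10 of lowest p in each direction, 15 fixed genes, up to 2 of lowest p per list, the genes past the threshold against control, the 10 of lowest p with AP5 and up to 3 near background in each direction. The number of arrays limits the precision. Same-numbered arrays were not treated as pairs, since only 11 of 30 same-numbered pairs over the 4 groups had a correlation of deviations over 0.1. Between NVP and Ro25 alone, 3 such pairs did, with 0.51, 0.04, 0.22, -0.31 and 0.61 for arrays 1 to 5. The replicate number as a block was therefore also fitted as an alternative. A few genes that the rule names are not reported here.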

Additional observations from a re-analysis of the deposited data

Results flagged for a closer look

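In 8 of the 130 sets of 5 arrays looked at (65 named genes in 2 groups), 1 array stood farther from the others than Dixon's 95% limit for 5 values allows. Chance alone flags about 1 set in 20, so a number of this size carries little weight. On NVP 5, Osr1 was at -2.67, below the other NVP arrays at -2.49 to -2.43, and Grina was at 0.12, below the others at 0.42 to 0.50. On the same array Spry2, an ERK pathway inhibitor, was at 3.46, above the others at 2.68 to 2.82, and Dusp6 was at 0.19, above the others at -0.13 to -0.04. Csk was at 0.17 on NVP 4, above the other NVP arrays at 0.05 to 0.07. On Ro25 4, Dusp7, an ERK phosphatase, was at 0.27, below the others at 0.88 to 1.02, and Tpx2 was at -3.03, above the others at -3.35 to -3.26. Ccl5 was at -3.99 on Ro25 1, above the other Ro25 arrays at -4.10 to -4.07.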

How the results depend on the processing

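None of the alternatives gave a gene past an adjusted p under 0.05 between NVP and Ro25 in limma, with the lowest adjusted p between 0.151 and 1.000 when 1 array was left out and between 0.373 and 1.000 otherwise. The alternatives for counts at an unadjusted p, shares, medians over genes changed with AP5 and genes of 1.5-fold or more were chosen after seeing the data. With median centring in place of loess, 94 genes were higher with NVP and 44 lower (unadjusted p under 0.05), and the median over genes lower with AP5 was -0.0085. Scaling the log ratios between arrays gave 359 higher and 367 lower. The slide block gave 220 higher and 758 lower, and the median over genes lower with AP5 was -0.023, while within the shared slide that median was -0.0046. Genes of 1.5-fold or more numbered 365 with Agilent's processed signals (217 higher with NVP), 14 with the mean of a gene's probes (14 higher), 176 with the slide block (33 higher), 409 within the shared slide (312 higher), 71 on the first scan day alone (65 higher) and 35 with array weights (24 higher). The interval lay within 1.5-fold for 70.5% of genes with Agilent's signals, 79.0% with median centring, 75.6% with the slide block and 64.6% within the shared slide. Leaving out 1 array gave 293 to 927 genes higher, 340 to 921 lower, 4 to 88 of 1.5-fold or more, and an interval within 1.5-fold for 91.2% to 94.2% of genes. The cause of these shifts was not tested.

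The immediate early and contractile lists kept a median above 0 under each of 25 alternatives, from 0.03 to 0.11 and from 0.03 to 0.12. A steady sign was not particular to them. The fibroblast and meningeal list also stayed above 0, from 0.01 to 0.11. The lists of apoptosis genes (-0.08 to -0.02), ERK feedback genes (-0.12 to -0.02) and neuropeptides (-0.25 to -0.001) stayed below 0. Some of these alternatives, such as the 10 arrays alone, leave the differences nearly as they are. Contractile genes higher with NVP fell from 19 of 23 to 15 with the slide block and to 13 within the shared slide. Immediate early genes higher with NVP fell from 24 of 29 to 21 and to 19. The fixed receptor and marker genes changed sign most often, with Grin3a in 7 of 24 alternatives and Grin2c in 6 of 25. Of 120 named genes, the slide block turned 11 and the shared slide 22, with adjusted p above 0.05 throughout. With the replicate number as a block, 0 genes passed and the lowest adjusted p was 0.774, with 587 genes higher and 613 lower before adjustment. In the exact permutation tests the lowest adjusted p over 16 alternatives was 0.0794, for Arc and Ptgs2, and the Nr4a1 difference was -0.034 with median centring and -0.0069 to 0.096 with 1 array left out. Aquantile scaling leaves log ratios as they are and so changed nothing.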
